A study of Mus musculus with 1012 samples.

Results

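The mouse mitochondrial genome carries 37 annotated genes, of which 13 encode proteins, 2 encode ribosomal RNAs (rRNAs) and 22 encode transfer RNAs (tRNAs). All 37 were taken from the GENCODE vM21 annotation of GRCm38 by their place on the mitochondrial chromosome (M). Values could be given for 27 of them among the 30452 features counted: 10 mRNAs, both rRNAs and 15 tRNAs. The mRNAs mt-Atp8, mt-Co3 and mt-Nd4l and the tRNAs mt-Tw, mt-Ty, mt-Ts1, mt-Td, mt-Tk, mt-Tg and mt-Th were not analysed here.

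The counts came from 1012 mouse cells measured with Smart-seq2 or an enhanced form of it, which make cDNA from polyadenylated RNA. Per the study's methods, biopsies went through the enhanced protocol with more PCR cycles than scRNA-seq, and whole cells were processed by Smart-seq2 or a similar workflow. In all comparisons of biopsies with whole cells, the kind of sample therefore cannot be told apart from library preparation. Live-seq libraries (296 cells) were made from cytoplasm drawn out of a living cell with a hollow cantilever, scRNA-seq libraries (554 cells) from lysed whole cells, and a further set (162 cells) from whole cells after sampling. RAW cells are a macrophage line. RAW_Mock cells are labelled as not treated and were given PBS per the study, and RAW_LPS cells received lipopolysaccharide. The study's methods state 4 to 5 h of lipopolysaccharide for the biopsies and no time for whole cells. All RAW cells were of RAW-G9, a single clone with an mCherry reporter under the Tnf promoter and a fusion of EGFP to RelA, except those of Live-seq batch 5Reseq, which were the parental RAW264.7 line. IBA cells are an immortalized line of brown preadipocytes from young male C57BL6/J mice. ASPC_Pre cells are primary adipose stem and progenitor cells from the subcutaneous fat of female C57BL/6J mice aged 7 to 10 weeks, and ASPC_Post cells are the same cells after 2 days of an adipogenic cocktail. In the sampling experiment IBA cells were lysed whole 1 h or 4 h after a biopsy had been taken, beside control cells that had not been sampled. The cells of each batch and state were added up if there were 3 or more, giving 15 Live-seq and 12 scRNA-seq sums. These sums, not cells, were the replicates. Nothing in the labels ties the batches to separate mice or frozen stocks, so p-values measure the spread between these sums only.

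Mitochondrial DNA is transcribed from both strands as long precursors, and most mRNAs and rRNAs are released when the tRNAs between them are cut out. The mRNAs encode core subunits of the respiratory chain and of ATP synthase, and the rRNAs form the mitochondrial ribosome that translates them. Most of these mRNAs, and to a lesser degree the rRNAs, carry short poly(A) tails, which is how an oligo-dT protocol captures them. Adipocyte progenitors build up mitochondria as they differentiate, and macrophages shift their energy metabolism after lipopolysaccharide, so these transcripts are often read in both.

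Parts of the mitochondrial genome also lie in the nuclear genome as near-identical copies, and only reads with a single place in the genome were counted. Of all 75-base windows of each gene, the length of a read, an exact copy in a nuclear transcript existed for 99.5% in mt-Co2, 99.5% in mt-Atp6, 97.8% in mt-Nd3, 61.5% in mt-Nd4, 39.8% in mt-Co1, 5.71% in mt-Nd2 and 1.66% in mt-Nd5. No window of mt-Nd1, mt-Nd6, mt-Cytb, mt-Rnr1 or mt-Rnr2 had one. Only annotated transcripts were searched. A copy elsewhere in the nuclear genome would have been missed, so genes without a copy found here need not be fully countable. mt-Co2, the second subunit of cytochrome c oxidase, had 0 counts in all 1012 cells, and mt-Atp6, a subunit of ATP synthase, had 4 counts in 3 cells, so neither level could be measured. The 7 mRNAs that could be counted in every state were mt-Nd1, mt-Nd2, mt-Nd4, mt-Nd5 and mt-Nd6 of complex I, mt-Cytb of complex III and mt-Co1 of complex IV. The nuclear copies themselves had few counts: Gm28437, Gm10925, Gm28661, Gm10222, Gm28439 and Gm29216, which copy mt-Co3, mt-Atp6, mt-Co2, mt-Nd4l, mt-Nd4 and mt-Co1, each stayed between 0 and 5.11 CPM (counts-per-million of kept counts, that is without the 20 genes found in negative controls and the 84 ribosomal protein genes). One copy, Gm28438, stood apart. It copies mt-Nd3, a small complex I subunit at M:9459-9806 on the plus strand, over 345 bases with a single substitution, T3C, counted from the first base of mt-Nd3. The first 30 bases of both are shown from the GENCODE vM21 transcripts, 5′ to 3′, because that base, in capitals, separates the annotated sequences. The last bases of mt-Nd3 lie past the end of the annotated copy. What the nuclear genome holds beyond that end was not searched, so these last bases need not separate reads.
mt-Nd3 (chrM:9459-9488, plus strand): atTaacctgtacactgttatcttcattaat
Gm28438 (chr1:24613090-24613119, minus strand): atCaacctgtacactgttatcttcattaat

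Counts fell on one gene or the other by cell type. They are counts per gene, and the base itself was not read. In ASPCs, 897 counts lay on mt-Nd3 and 24 on Gm28438 (193 cells), so that 97.4% of the counts of both genes were on mt-Nd3 (exact 95% interval 96.1 to 98.3). In IBA cells, 0 counts lay on mt-Nd3 and 6065 on the copy (359 cells), which allows a share on mt-Nd3 of up to 0.0608%. In RAW cells, 0 counts lay on mt-Nd3 and 4410 on the copy (460 cells), which allows up to 0.0836%. The reads had no molecular identifiers, so these exact intervals, and the Poisson intervals of the sampling experiment, cover counting error only. The pattern was the same in biopsies and in whole cells. Live-seq ASPCs had 268 counts on mt-Nd3 against 1 on the copy, and scRNA-seq ASPCs had 629 against 23. In the sampling experiment mt-Nd3 stayed at 0, while the copy had 1017 counts in control cells, 876 at 1 h and 602 at 4 h. mt-Nd3 was found in 158 of 193 ASPCs and in no other cell. Of these ASPCs, 12 held counts on both genes.

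mt-Nd3 levels in ASPCs were low and differed between sums. Live-seq sums held 2.00 CPM in ASPC_Pre batch 8_8, 5.97 CPM in ASPC_Pre batch 9_4 and 10.3 CPM in ASPC_Post batch 9_4. The scRNA-seq sums held 15.1 CPM in ASPC_Pre batch 8_8, 8.75 CPM in ASPC_Pre batch 9_1 and 20.6 CPM in ASPC_Post batch 9_1. All IBA and RAW sums were at 0. Against a floor of 3 counts over all IBA sums, the pooled CPM counted on mt-Nd3 in ASPC_Pre was at least 221-fold higher in whole cells. In Live-seq it was at least 37.7-fold higher. As 97.8% of mt-Nd3 windows have a nuclear copy, these bounds describe where reads were counted. Whether the level of the transcript differed was not tested by them. Gm28438 ran the other way: its IBA sums held 12.4, 19.8 and 87.3 CPM in whole cells and 8.04, 16.2 and 23.2 CPM in Live-seq, whereas its ASPC_Pre sums held 0 and 0.165 CPM in whole cells and 0 in both Live-seq sums. When counts of the copy were added to mt-Nd3, an alternative chosen after seeing the data, the direction turned: the log2 fold change of ASPC_Pre over IBA was −1.57 in whole cells (standard error (SE) 0.61, 95% interval −2.95 to −0.19, p = 0.0303, adjusted p = 0.127, edgeR's quasi-likelihood test with Benjamini-Hochberg adjustment) and −1.96 in Live-seq (adjusted p = 1). A tRNA next to mt-Nd3, mt-Tr, which carries arginine, had 36 counts in all.

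**Figure D1:**
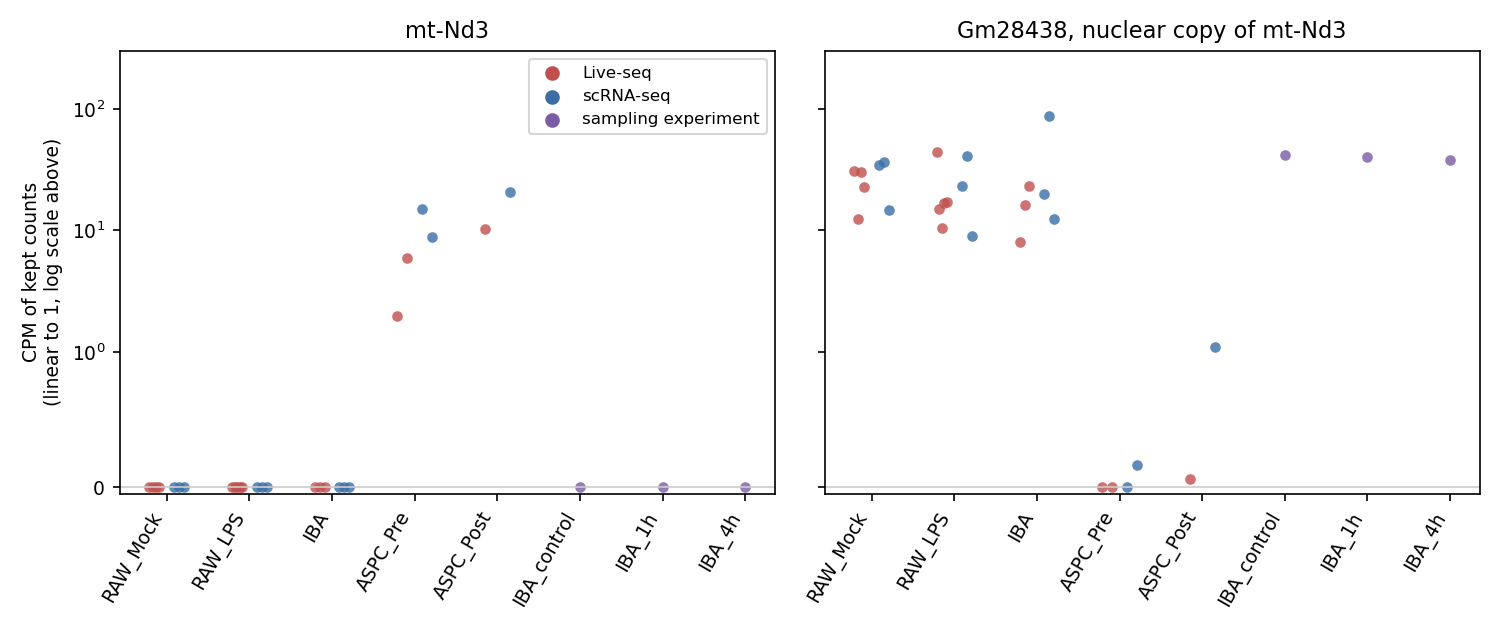
CPM of kept counts of mt-Nd3 (left) and of its nuclear copy Gm28438 (right) in each sum of a batch and state, on an axis that is linear up to 1 and logarithmic above; red, Live-seq; blue, scRNA-seq; purple, the sampling experiment. mt-Nd3 lies above 0 in the 6 ASPC sums only, and Gm28438 lies above 8 CPM in every RAW and IBA sum and at 1.10 CPM or less in every ASPC sum.

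Libraries held 64547 to 1603790 counts per cell in Live-seq, 41030 to 2671609 in scRNA-seq and 38451 to 1077131 in the sampling experiment. The macrophage markers (Csf1r, Lyz2, Cd68, Ptprc, Tyrobp) summed to 1619 to 26850 CPM in Live-seq RAW sums and to at most 78.3 CPM in Live-seq ASPC and IBA sums; in scRNA-seq they summed to 4061 to 6690 CPM in RAW cells and reached 517 CPM in 1 IBA sum. The mesenchymal markers (Col1a1, Col1a2, Col3a1, Pdgfra, Pdgfrb) summed to at least 1984 CPM in every Live-seq and scRNA-seq IBA or ASPC sum and to at most 5.46 CPM in RAW sums. The adipogenic genes Cebpd, Fkbp5 and Pparg did not separate ASPC_Post (113.4 CPM in Live-seq) from ASPC_Pre (85.8 and 141 CPM). Live-seq ASPC_Pre of batch 8_8 was shallow, with a median of 228158 counts and 1722.5 genes per cell; RAW_LPS of the same batch had fewer counts (208226) and RAW_Mock of batch 6 fewer genes (1622).

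Mitochondrial transcripts took a median of 6.29% of all counts of a Live-seq cell (range 0.000981 to 29.3%) and 7.83% of an scRNA-seq cell (0.330 to 23.3%). Cells above 30% had been removed by the study's own filter. Most of this was mt-Rnr2, the large-subunit rRNA, with a median of 4.72% in Live-seq and 6.20% in scRNA-seq. mt-Rnr2 is also among the 20 genes found in negative controls, which the study put down to misaligned oligo reads and removed, so its counts need not all be RNA of the cell; how much of its level this makes up was not tested. The mRNAs together took 1.42% in Live-seq (quartiles 0.904 and 2.06) and 1.45% in scRNA-seq (1.07 and 2.01). These pooled medians nearly coincided, but the 2 techniques hold the states in different proportions. By state, the Live-seq and scRNA-seq medians were 1.59% and 2.03% in RAW_Mock and 1.42% and 1.54% in RAW_LPS. They were 1.29% and 1.45% in IBA, 0.607% and 0.651% in ASPC_Pre and 2.32% and 1.07% in ASPC_Post. Only in ASPC_Post was the Live-seq median the higher. mt-Rnr1, the small-subunit rRNA, took 0.0511% and 0.0706%, and the tRNAs 0.000830% and 0.00144%. Between batches of 1 state the median mRNA share moved as much as between states. In Live-seq RAW_Mock it was 0.267% in batch 6, 1.61% in batch 7, 1.62% in batch 8_8 and 1.56% in batch 9_4. In Live-seq RAW_LPS it was 2.61% in batch 5Reseq, 1.01% in batch 6, 1.24% in batch 7, 1.69% in batch 8_8 and 1.597% in batch 9_4. Live-seq ASPC_Pre was low in both batches, at 0.265% in batch 8_8 and 0.904% in batch 9_4, and Live-seq ASPC_Post stood at 2.32%. In scRNA-seq the medians ran from 0.396% in ASPC_Pre of batch 9_1 to 2.34% in RAW_Mock of batch scRNA.

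**Figure D2:**
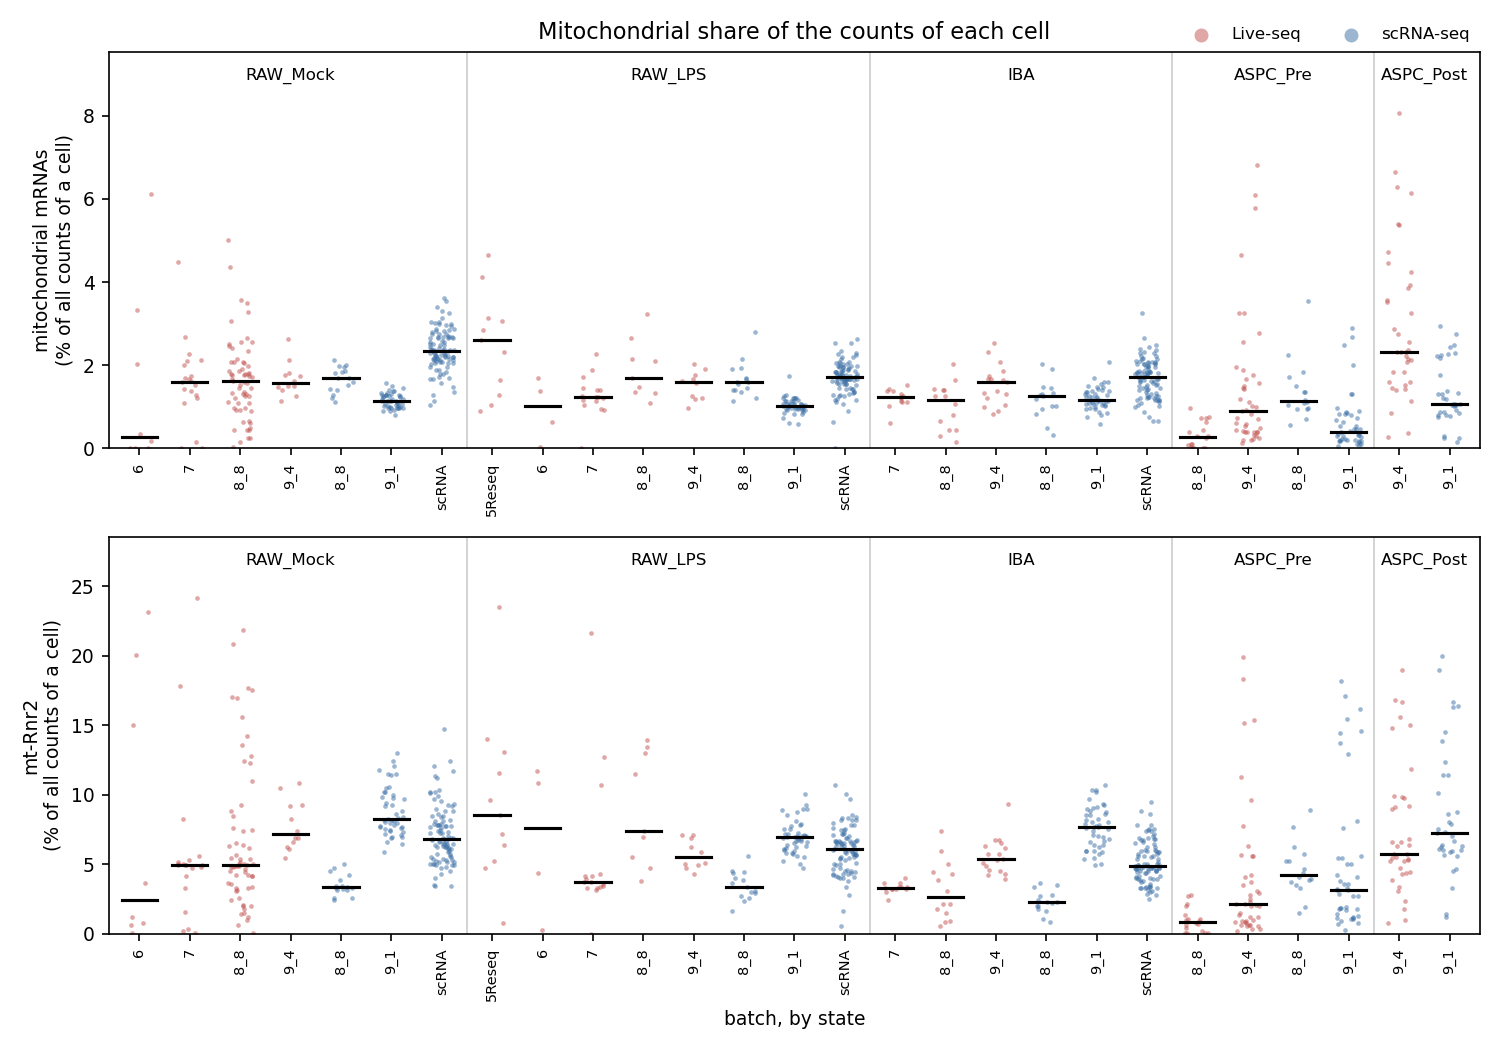
Share of all counts of a cell (%) taken by the mitochondrial mRNAs (top) and by mt-Rnr2 (bottom); each point is a cell, each column a batch within a state, and black bars are medians; red, Live-seq; blue, scRNA-seq. The mRNA medians lie between 0.265% and 2.61% and move between batches of the same state.

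Of the complex I subunits, mt-Nd1 had the most counts in every sum except Live-seq ASPC_Pre of batch 8_8 and scRNA-seq ASPC_Pre and ASPC_Post of batch 9_1, where mt-Nd5 had more. Its Live-seq sums ran from 459 CPM in ASPC_Pre batch 8_8 to 10417 CPM in ASPC_Post, and its scRNA-seq sums from 1821 CPM in ASPC_Pre batch 9_1 to 6664 CPM in RAW_Mock batch scRNA. mt-Nd5 ran from 551 to 5698 CPM in Live-seq and from 1876 to 4946 CPM in scRNA-seq. mt-Nd4 ran from 244 to 3453 CPM and from 623 to 2092 CPM, although only the windows without a nuclear copy could be counted. mt-Nd2 lay lower, at 131 to 1536 CPM and 490.4 to 1530.5 CPM. mt-Nd6, the one mRNA encoded on the other strand, lay lowest at 28.4 to 711 CPM and 228 to 758 CPM. The counting ignored strand, so mt-Nd6 could not be told apart from RNA antisense to it. Complex III's mt-Cytb, cytochrome b, ran from 710 to 9292 CPM in Live-seq and from 1111 to 6789 CPM in scRNA-seq. Complex IV's mt-Co1, the catalytic subunit of cytochrome c oxidase, ran from 1121 to 8821 CPM and from 2659 to 6961 CPM. In Live-seq the lowest sum of all 7 was ASPC_Pre of batch 8_8, and the highest was ASPC_Post of batch 9_4.

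Per length the order of the genes was much the same in both techniques. Only 75-base windows without a copy in an annotated nuclear transcript were used as the length. On them, mt-Rnr2 held 53212 CPM per 1000 windows in Live-seq (standard deviation (SD) 23514 over 15 sums). In scRNA-seq it held 52778 (SD 22788 over 12 sums). The Live-seq means on this scale were 6290 for mt-Nd1 (SD 2816), 5487 for mt-Co1 (SD 2269), 4854 for mt-Cytb (SD 2319), 2817 for mt-Nd4 (SD 1475), 1705 for mt-Nd5 (SD 749), 974 for mt-Rnr1 (SD 648), 776 for mt-Nd2 (SD 357) and 657 for mt-Nd6 (SD 406). In scRNA-seq mt-Co1 (5352, SD 1534) and mt-Nd1 (5239, SD 1444) led the mRNAs, followed by mt-Cytb (3260, SD 1387), mt-Nd4 (2454, SD 840.2), mt-Nd5 (1938, SD 521), mt-Nd2 (1058, SD 299) and mt-Nd6 (972, SD 332). Below mt-Rnr2, all neighbours in the Live-seq order differed by less than the larger of their SDs. In scRNA-seq the same held except for the steps from mt-Nd1 to mt-Cytb and from mt-Nd5 to mt-Nd2, which were larger than both SDs. mt-Rnr1, which lies just before mt-Rnr2 and is made in the same precursor, had 2407 CPM per 1000 windows in scRNA-seq (SD 2255), far below mt-Rnr2 in both techniques; the limit on mt-Rnr2 from negative controls holds for this gap too.

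**Figure D3:**
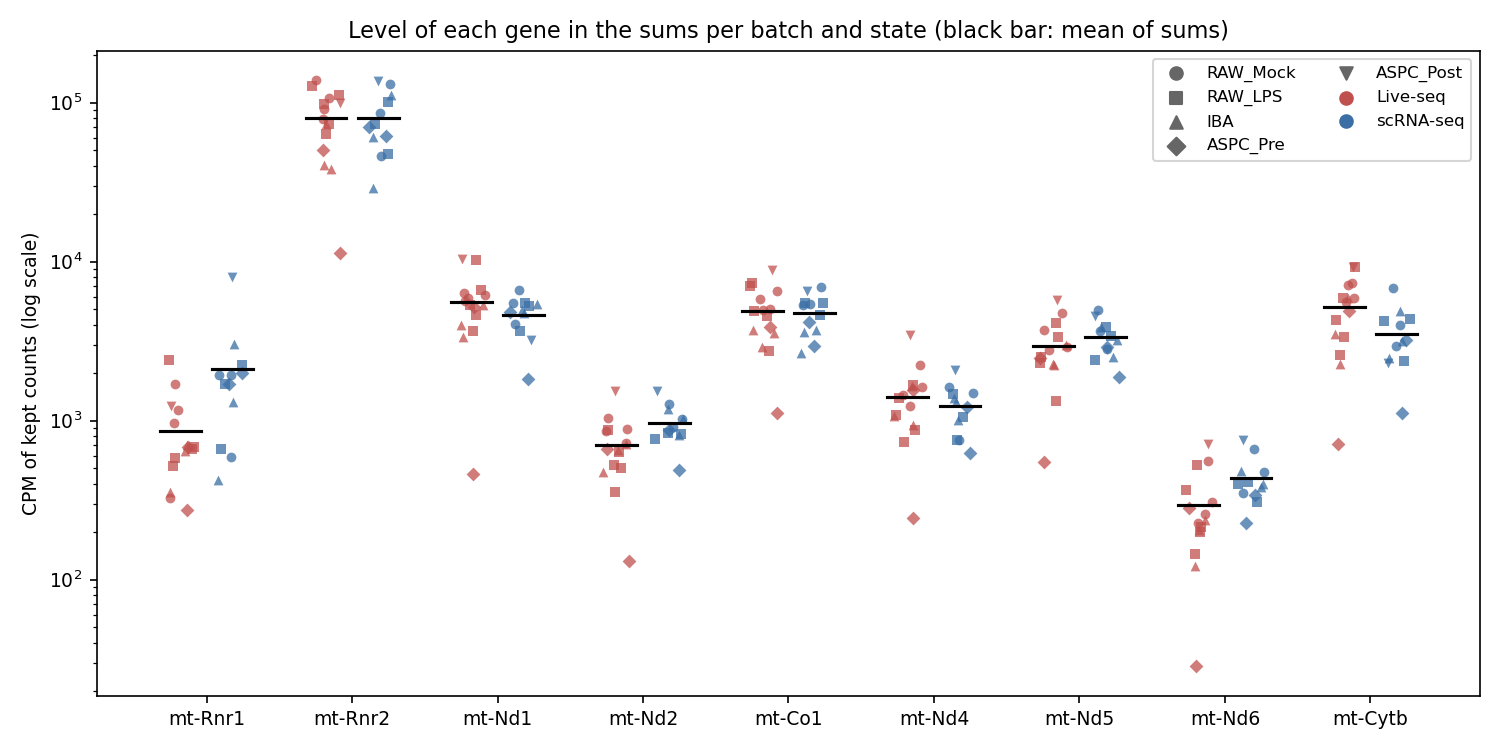
CPM of kept counts (log axis) of the 2 rRNAs and the 7 countable mRNAs; each point is the sum of the cells of a batch and state, the shape gives the state and the black bar is the mean over sums; red, Live-seq (15 sums); blue, scRNA-seq (12 sums). mt-Rnr2 lies above the mRNAs in all sums, and the lowest red diamond of each gene is ASPC_Pre of batch 8_8.

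The tRNAs had few counts. They are 59 to 75 bases long, no longer than a 75-base read, so their counts need not come from mature tRNA, which was not tested. mt-Tp (proline) had the most counts, with 1333 in Live-seq and 2792 in scRNA-seq, and at least 1 count in 72.1% of all cells. It was followed by mt-Tl1 (leucine) with 340 and 655 counts and mt-Tc (cysteine) with 174 and 765 counts. mt-Tp ran from 0 to 30.7 CPM in Live-seq sums and from 5.55 to 17.1 CPM in scRNA-seq sums. mt-Tp and mt-Tc lie on the strand opposite to most genes, and reads of the precursor antisense to them could not be told apart from the tRNA. The other 12 tRNAs had between 4 and 619 counts each over all cells.

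Biopsies were compared with whole cells over RAW_Mock, RAW_LPS, IBA and ASPC_Pre, to ask whether cytoplasm drawn from a cell holds mitochondrial transcripts in the same proportion as the cell. Of the 15 mitochondrial genes that passed the expression filter (mt-Rnr1, mt-Rnr2, mt-Nd1, mt-Nd2, mt-Nd3, mt-Nd4, mt-Nd5, mt-Nd6, mt-Co1, mt-Cytb, mt-Tf, mt-Tl1, mt-Tq, mt-Tc and mt-Tp), 0 passed both thresholds (adjusted p below 0.05, log2 fold change beyond 1 in either direction) by edgeR's quasi-likelihood test. Of all 12865 genes tested, 0.155% passed, all of them lower in Live-seq. At an unadjusted p below 0.05 the count of mitochondrial genes was 1, and DESeq2 and the newer edgeR 4 fit called 0, with 1 and 3 genes at an unadjusted p below 0.05. The median log2 fold change of all genes was −0.23. A p above the threshold does not show that levels were equal, and the intervals give the range left.

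mt-Rnr1 had the lowest fold change of the rRNAs and mRNAs. Its Live-seq sums lay at 325, 1159, 1687 and 959.7 CPM in RAW_Mock, between 520.1 and 2408 CPM in RAW_LPS, at 355, 703 and 647 CPM in IBA and at 276 and 678 CPM in ASPC_Pre. Its scRNA-seq sums lay at 587, 1922 and 1932 CPM in RAW_Mock, 667, 1706 and 2227 CPM in RAW_LPS, 422, 1317 and 3014 CPM in IBA and 1690.5 and 1993.5 CPM in ASPC_Pre. The techniques overlapped in every state but ASPC_Pre. The log2 fold change was −1.01 (SE 0.35, 95% interval −1.73 to −0.28, p = 0.00827, adjusted p = 0.333). Without the expression filter it was −1.06 and passed (adjusted p = 0.0156). Within batch 8_8, the one batch with both techniques, it was −0.64 (95% interval −1.93 to 0.64, adjusted p = 0.937). mt-Rnr1 also varied between scRNA-seq batches: the 3 sums of batch scRNA were the 3 lowest.

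The large rRNA and the mRNAs lay nearer to 0. mt-Rnr2 had a log2 fold change of −0.05 (SE 0.26, 95% interval −0.58 to 0.48), mt-Co1 of 0.05 (SE 0.21, −0.37 to 0.48), mt-Nd5 of −0.15 (SE 0.24, −0.65 to 0.35) and mt-Nd1 of 0.20 (SE 0.28, −0.37 to 0.77). mt-Nd4 had 0.30 (SE 0.28, −0.28 to 0.87), mt-Nd2 −0.36 (SE 0.25, −0.88 to 0.15), mt-Nd6 −0.52 (SE 0.33, −1.21 to 0.17) and mt-Cytb 0.57 (SE 0.30, −0.05 to 1.19), all with adjusted p of at least 0.743. Several of these turned sign when the comparison was held within a batch. With batch in the model the values were −0.44 for mt-Nd1, −0.48 for mt-Nd4, −0.24 for mt-Cytb and 0.30 for mt-Rnr2, and in batch 8_8 alone they were −0.57, −0.59, −0.24 and 0.36. Leaving out Live-seq batch 9_4 moved mt-Nd6 to −1.17 (adjusted p = 0.0889) and mt-Nd2 to −0.79 (adjusted p = 0.110), in a model where the lone remaining ASPC_Pre sum was taken to vary like the others. In each state taken alone 0 of the 15 genes passed, where 0.0% of all genes did by the same test. At an unadjusted p below 0.05 there was 1, mt-Rnr1 in ASPC_Pre, and DESeq2 and the edgeR 4 fit called 0 in each state. In RAW_Mock, RAW_LPS and IBA, mt-Nd3 had 0 counts in both techniques and could not have passed.

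**Figure D4:**
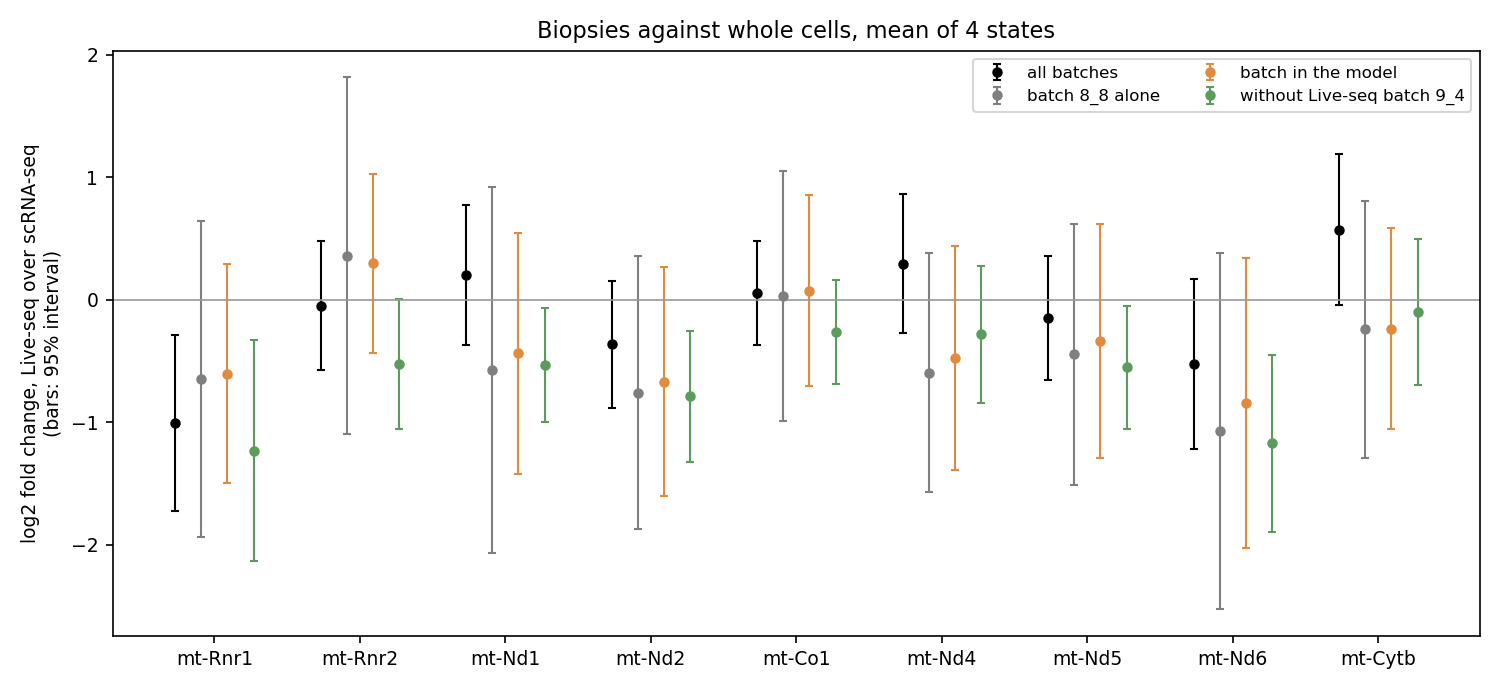
Log2 fold change of Live-seq over scRNA-seq with 95% intervals for the 2 rRNAs and 7 mRNAs, averaged over 4 states: all batches (black), batch 8_8 alone (grey), batch in the model (orange) and without Live-seq batch 9_4 (green). mt-Rnr1, mt-Nd2, mt-Nd5 and mt-Nd6 lie below 0 in all 4 fits, while mt-Rnr2, mt-Nd1, mt-Co1, mt-Nd4 and mt-Cytb change sign.

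Inside batch 8_8 the states differed. Live-seq ASPC_Pre was below scRNA-seq ASPC_Pre for all 9 genes, by −1.89 (mt-Co1) to −3.57 (mt-Nd6) on the log2 scale. The values behind the extremes were 1121 against 4142 CPM for mt-Co1 and 28.4 against 338 CPM for mt-Nd6. In the other 3 states of that batch log2 ratios ran from −0.96 (mt-Nd6 in IBA) to 1.24 (mt-Rnr2 in RAW_LPS). mt-Nd2, mt-Nd4 and mt-Nd6 were lower in Live-seq in all 4 states and mt-Rnr2 was higher in 3. These single pairs of sums have no replicate. RNAs retained in the nucleus were present in the biopsies too: Malat1 ran from 0.639 to 6933 CPM in Live-seq and from 869 to 11212 CPM in scRNA-seq, and Neat1 from 0 to 1348 and from 65.4 to 1094 CPM. Kcnq1ot1 reached 374 and 473 CPM and Meg3 60.4 and 137.9 CPM.

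The make-up of the mRNA pool could be compared without a library size, as each mRNA's share of the counts of all 7. These shares are given as a description. mt-Nd1 took 26.03% ± 5.40 (SD, n = 15 sums) in Live-seq and 24.7% ± 4.12 (SD, n = 12 sums) in scRNA-seq, and mt-Co1 23.98% ± 4.70 and 25.5% ± 5.12. mt-Cytb took 24.3% ± 4.55 in Live-seq and 17.9% ± 3.88 in scRNA-seq. mt-Nd5 took 14.2% ± 2.602 and 17.8% ± 1.86, and mt-Nd4 6.72% ± 1.30 and 6.57% ± 1.58. The rarest mRNAs were rarer still in biopsies, with mt-Nd2 at 3.43% ± 0.725 against 5.22% ± 1.20 and mt-Nd6 at 1.32% ± 0.370 against 2.30% ± 0.474. The mt-Nd6 shares ran from 0.845 to 2.13% in Live-seq and from 1.88 to 3.62% in scRNA-seq, so that they overlapped through 1 Live-seq sum, RAW_Mock of batch 6 with 8 cells. Within batch 8_8 the mt-Nd6 share was 1.30% against 2.21% in RAW_Mock, 1.47% against 1.94% in RAW_LPS, 1.53% against 2.61% in IBA and 0.876% against 1.93% in ASPC_Pre, lower in the biopsies each time. For mt-Cytb the same pairs were 23.6% against 18.6%, 17.4% against 19.8%, 16.8% against 16.2% and 21.9% against 18.4%, with no common direction.

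Lipopolysaccharide was compared with mock treatment in RAW cells, with batch in the model. Of the 15 mitochondrial genes, mt-Nd3 had 0 counts in RAW cells, so it could not have passed in either technique. In whole cells 0 of 15 mitochondrial genes passed, where 1.29% of 13085 genes did by edgeR's quasi-likelihood test; 0 had an unadjusted p below 0.05, and DESeq2 and the edgeR 4 fit called 0. The log2 fold changes of the 9 rRNAs and mRNAs ran from −0.27 (mt-Nd2) to 0.21 (mt-Rnr1). mt-Nd2 held 837, 821 and 761 CPM in RAW_LPS and 1022, 909.9 and 1279 CPM in RAW_Mock, in the order of batches 8_8, 9_1 and scRNA. These groups did not overlap, and the log2 fold change was −0.27 (SE 0.24, 95% interval −0.82 to 0.28, adjusted p = 0.683). How many of all genes fail to overlap was not counted, so nothing is drawn from the lack of overlap. In Live-seq 0 of 15 passed, where 0.0% of 11476 genes did; 0 mitochondrial genes and 537 of all genes had an unadjusted p below 0.05, and DESeq2 and the edgeR 4 fit called 0 of the 15 but 435 and 5 of all genes. The 7 mRNAs had log2 fold changes from −0.78 (mt-Nd2, SE 0.53, 95% interval −1.96 to 0.40) to −0.20 (mt-Nd1, SE 0.53), beside a median of −0.40 over all genes. Without batch in the model mt-Nd1 and mt-Co1 turned to 0.16 and 0.05. The induced genes Tnf, Il1b and Ccl4 summed to 2585 to 7799 CPM in scRNA-seq RAW_LPS and to 98.9 to 859 CPM in RAW_Mock.

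Between cell types, mt-Co1 was lower in IBA cells than in mock-treated RAW cells. In whole cells it held 2659, 3702 and 3626 CPM in IBA and 5425, 5342 and 6961 CPM in RAW_Mock, in batches 8_8, 9_1 and scRNA. In Live-seq it held 2923, 3723 and 3564 CPM in IBA in batches 7, 8_8 and 9_4 and 5838, 5061, 6553 and 4938 CPM in RAW_Mock in batches 6, 7, 8_8 and 9_4. The groups did not overlap in either technique, which also held for mt-Nd1, mt-Nd2 and mt-Rnr2 in Live-seq. How many of all genes fail to overlap between so few sums was not counted for any comparison, so nothing is drawn from a lack of overlap. In whole cells the log2 fold change was −0.73 (SE 0.22, 95% interval −1.23 to −0.23, adjusted p = 0.0272 by edgeR's quasi-likelihood test), under the fold threshold. By the adjusted p alone 1 of the 15 mitochondrial genes passed, where 38.9% of all genes did, and with the fold threshold 0 did, where 34.5% of all genes did. The 15 include mt-Nd3, which had 0 counts in both groups and could not have passed in either technique. The adjusted p of mt-Co1 was 0.0671 without batch in the model, 0.0643 without batch 8_8 and 0.168 without batch scRNA; without batch 9_1 the value was −1.03 and passed both thresholds. In Live-seq the value was −0.75 (SE 0.50, 95% interval −1.85 to 0.35, adjusted p = 0.636), and 0 of 15 genes passed, where 2.47% of 11476 genes did. There 0 mitochondrial genes had an unadjusted p below 0.05, and DESeq2 and the edgeR 4 fit called 0. The other whole-cell values of the rRNAs and mRNAs lay between −0.35 (mt-Rnr2) and 0.10 (mt-Nd4). In Live-seq the remaining 8 were all below 0, from −0.95 (mt-Rnr1) to −0.35 (mt-Nd4), with intervals that all crossed 0. Live-seq mt-Rnr2 held 38262, 40413 and 73550 CPM in IBA against 79063 to 138670 CPM in RAW_Mock, without overlap (log2 fold change −0.88, 95% interval −1.81 to 0.05).

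ASPC_Pre cells were compared with IBA cells, primary against immortalized preadipocytes. In whole cells 1 of 15 mitochondrial genes passed, mt-Nd3, where 11.1% of all genes did. mt-Nd3 met the expression filter through the ASPCs only, the group where it is high, so its test results here and in Live-seq are no support for a difference. Its fitted fold change depends on the prior count, since all IBA sums were at 0. Only the lower bound given earlier is kept, as a description of where reads were counted. DESeq2 called 0 of the 15, and leaving out any of the 3 batches also brought the count to 0. The 9 rRNAs and mRNAs had log2 fold changes from −0.35 (mt-Nd1, SE 0.29) to 0.53 (mt-Rnr2, SE 0.36), and all had adjusted p of at least 0.279 by edgeR's quasi-likelihood test. Only mt-Nd6 had sums without overlap, at 228 and 338 CPM in ASPC_Pre and 381 to 482 CPM in IBA, with the same limit. In Live-seq 0 of 15 passed, where 0.00871% of 11476 genes did by edgeR's quasi-likelihood test; 1, mt-Nd3, had an unadjusted p below 0.05, and DESeq2 and the edgeR 4 fit called 0. All 9 rRNAs and mRNAs lay below 0, between −0.67 (mt-Rnr2) and −0.01 (mt-Rnr1), with SEs of 0.50 to 0.97. These comparisons share the IBA sums with the comparison to RAW_Mock.

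After 2 days of adipogenic cocktail the mRNAs were higher in ASPC_Post than in ASPC_Pre of the same batch. In Live-seq batch 9_4, mt-Cytb went from 4885 to 9292 CPM, mt-Nd1 from 5209 to 10417 CPM, mt-Co1 from 3870 to 8821 CPM and mt-Nd4 from 1566 to 3453 CPM. In scRNA-seq batch 9_1, mt-Cytb went from 1111 to 2303 CPM, mt-Nd1 from 1821 to 3225 CPM, mt-Co1 from 2930.4 to 6500.5 CPM and mt-Nd4 from 623 to 2092 CPM. mt-Rnr2 stood at 50136 and 99419 CPM in the Live-seq pair and at 70532 and 137418 CPM in the scRNA-seq pair. mt-Rnr1 stood at 678 and 1231 CPM and at 1690.5 and 7966 CPM. Each technique had a single batch with both states, so no test was made and batch of culture cannot be told apart from treatment. ASPC_Pre of scRNA-seq batch 8_8, with 4842 CPM of mt-Nd1 and 3221 CPM of mt-Cytb, lay above ASPC_Post of batch 9_1 for these genes. The gene Lars2, the mitochondrial leucyl-tRNA synthetase that was found in negative controls, stood at 2616 and 10821 CPM in the scRNA-seq pair; its part in the mt-Rnr1 values was not tested.

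Some biopsies were labelled as pairs from the same cell before and after treatment. By that design the second biopsy came from a cell already sampled once. Treatment therefore cannot be told apart from the earlier sampling or from the time between. These biopsies are also part of the Live-seq sums used above. The pairs are those the labels name. The barcodes the study used to check that a pair was the same cell were not analysed here. The study reports fewer ASPC pairs than the labels gave here, so not every pair need be the same cell. Where the labels gave both biopsies of a pair the same order, the untreated one was taken as the first. In 9 ASPC pairs of batch 9_4 the mRNA share had a median of 0.607% in the first biopsy (range 0.210 to 4.65) and 2.31% in the second (1.13 to 6.64), and was higher in the second in 6 of 9 pairs. The 3 pairs that went down started from the 3 highest first values, 1.97, 3.24 and 4.65%. In 4 RAW pairs sampled before and after lipopolysaccharide the medians were 1.36% and 1.54%, with 3 of 4 higher. In the ASPC pairs mt-Nd3 was read in 7 first and 9 second biopsies and Gm28438 in 0 and 1, whereas in the RAW pairs mt-Nd3 was at 0 throughout.

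The nuclear genes for mitochondrial DNA upkeep, transcription, RNA processing and translation were taken as a list of 50, of which 48 were tested in Live-seq. Between IBA and RAW_Mock whole cells 8 of 50 passed both thresholds, 3 higher and 5 lower in IBA, beside 34.5% of all genes. Mterf2, a member of the mitochondrial transcription termination factor family, held 8.55 to 14.2 CPM in IBA and 0 to 0.379 CPM in RAW_Mock (log2 fold change 5.77, SE 0.89). Cox14, an assembly factor for cytochrome c oxidase, and Grsf1, an RNA granule protein, had 1.19 (SE 0.28) and 1.12 (SE 0.30). Fastkd1, an RNA-binding protein of mitochondria, had −2.36 (SE 0.42), Trmt5, a tRNA methyltransferase, −1.68 (SE 0.34), Oxa1l, the insertase that places mitochondrially made proteins in the inner membrane, −1.62 (SE 0.22), Tsfm, an elongation factor, −1.43 (SE 0.21) and Tbrg4 −1.25 (SE 0.28). Oxa1l was also the 1 of 50 that passed between RAW_LPS and RAW_Mock whole cells, beside 1.29% of all genes, with 58.4, 69.7 and 63.8 CPM against 191.5, 146.7 and 143.2 CPM (log2 fold change −1.18, SE 0.21, adjusted p = 0.0402, edgeR's quasi-likelihood test). Between ASPC_Pre and IBA whole cells 1 of 50 passed, beside 11.1% of all genes. It was Rexo2, an exonuclease that clears short mitochondrial RNAs, with 704 and 453 CPM against 343, 246 and 226 CPM (1.19, SE 0.20, adjusted p = 0.00913, edgeR's quasi-likelihood test). Between biopsies and whole cells 0 of 50 passed (2 at an unadjusted p below 0.05), beside 0.155% of all genes. In the 3 Live-seq comparisons 0 of 48 passed, with 2, 2 and 0 genes at an unadjusted p below 0.05 for IBA, ASPC_Pre and lipopolysaccharide. Beside them 2.47%, 0.00871% and 0.0% of all genes passed, in the same order.

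The sampling experiment was made by the study to look for molecular effects of a biopsy on the sampled cell. It held 70 control IBA cells, 49 cells lysed at 1 h and 43 at 4 h, all of batch 8_1, so each group is 1 sum and no test was made. Values here are CPM of all counts. The 7 mRNAs together stood at 17616 in control cells (exact Poisson 95% interval 17570 to 17662), 19007 at 1 h and 19184 at 4 h, which are 1.08 and 1.09 times the control. mt-Cytb stood at 4206, 4920 and 4952, and mt-Nd1 at 5329, 5643 and 5054. mt-Nd2 stood at 1202, 1185 and 1377, mt-Nd4 at 1350.4, 1288 and 1585, mt-Nd5 at 2263, 2614 and 2472, mt-Co1 at 2837, 2901 and 3215 and mt-Nd6 at 429, 458 and 529. At 4 h all mRNAs but mt-Nd1 were above the control, by 1.09 times (mt-Nd5) to 1.23 times (mt-Nd6). mt-Rnr1 had the largest ratio of the 9 genes at 4 h: it stood at 1520.1, 1788 and 2084, or 1.18 and 1.37 times the control. mt-Rnr2 stood at 60899, 69487 and 66916, or 1.14 and 1.10 times. The tRNAs together stood at 13.1, 11.7 and 11.3, and Gm28438 at 31.6, 31.2 and 28.3.

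Over single cells the medians differed more than the sums. For mt-Rnr2 the control median was 36349 CPM (quartiles 18322 and 82361), against 68356 at 1 h and 67535 at 4 h, or 1.88 and 1.86 times, and the cells of each group lay in 2 ranges, with the control median between them. A share of mt-Rnr2 below 4%, a value set after seeing the cells, was found in 37 of 70 control cells (52.9%), 11 of 49 cells at 1 h (22.4%) and 15 of 43 cells at 4 h (34.9%). Depth moved with it: the rank correlation of total counts with the mt-Rnr2 share across cells was 0.66 in control, 0.55 at 1 h and 0.58 at 4 h, and the median total was 462758, 581052 and 492551 counts; its part in the difference was not tested. For the mRNAs the medians were 1.25 and 1.29 times the control, and for mt-Rnr1, where the rank correlations with depth were −0.06, −0.19 and −0.19, they were 1.20 and 1.48 times.

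**Figure D5:**
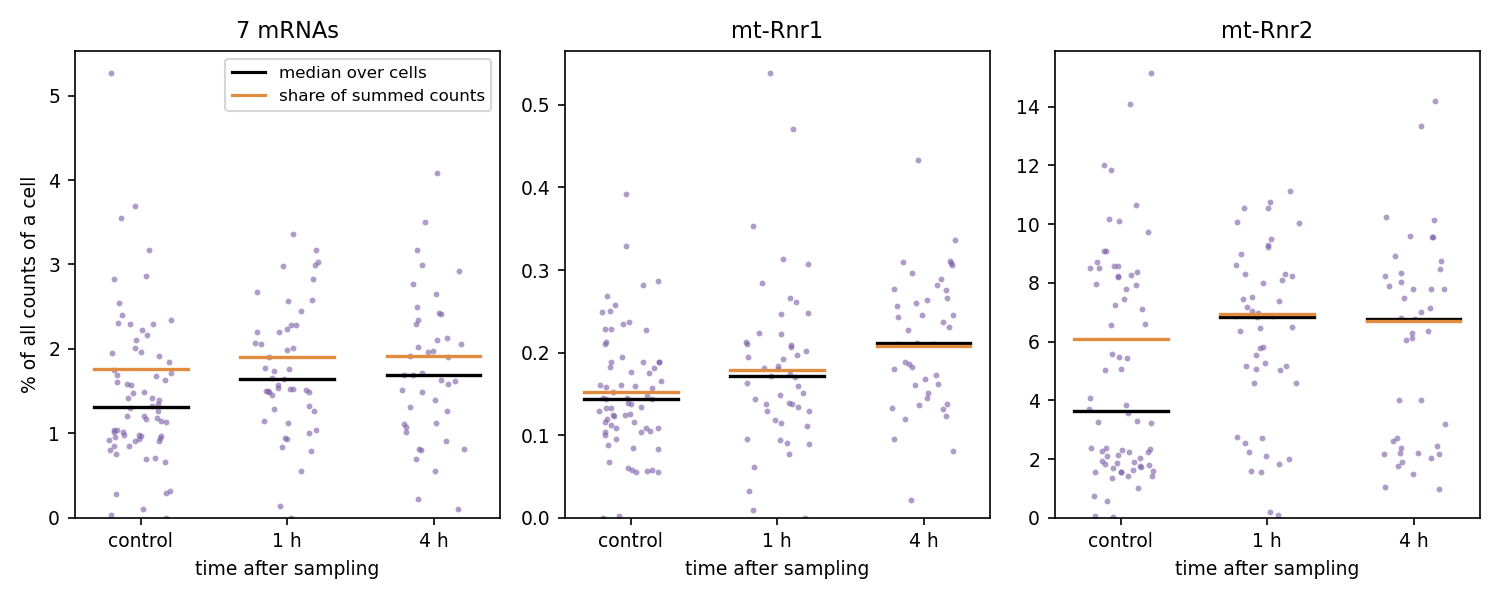
Share of all counts of a cell (%) taken by the 7 mRNAs, mt-Rnr1 and mt-Rnr2 in IBA cells not sampled (70 cells), 1 h (49) and 4 h (43) after a biopsy; points are cells, black bars are medians and orange bars the share of the summed counts. The mt-Rnr2 points of each group fall into a lower and an upper range, with the control median between them, and the mt-Rnr1 median goes from 0.144% to 0.172% and 0.212%.

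Across cells of 1 batch and state the mRNAs moved together. The median Pearson correlation between pairs of the 7 mRNA levels lay between 0.243 and 0.915 over 12 Live-seq groups and between 0.220 and 0.953 over 12 scRNA-seq groups. These values share the library and its depth and are given as a description.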

How the data were processed

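Live-seq, scRNA-seq and post-sampling libraries of mouse cells were read as the raw counts that the authors deposited, 1 column per cell. Per the labels and the study's methods, 75-base single-end reads were aligned to GRCm38 with STAR (2.6.1c, after bcl2fastq 2.19.1) and counted per gene with HTSeq without regard to strand, from reads with a single place in the genome. Cells with fewer than 1000 genes or over 30% mitochondrial reads had been removed by the study, although 2 Live-seq cells under 1000 genes remained. Nuclear copies and antisense RNA therefore bear on these counts as stated in the text.

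Cells were added up within a batch and state that held 3 or more. As in the study, the library excluded 84 ribosomal protein genes and the 20 genes seen in negative controls; mt-Rnr2 is among the latter, so it was kept as a tested gene outside the library and its CPM is relative to counts that exclude it. A gene entered if 15% or more of the cells in any scRNA-seq state, and 5% or more of those fitted, had 2 or more counts of it. edgeR 4.0.16 (R 4.3.3) gave quasi-likelihood tests with TMM scaling and Benjamini-Hochberg adjustment over all genes tested. A call needed an adjusted p under 0.05 with a log2 fold change beyond 1 in either direction. Comparisons within a technique had batch in the model; the comparison of techniques did not. The labels name shared batches, which is where the pairing comes from, and deviations of sums of the same batch correlated at 0.249, 0.352 and 0.437 in scRNA-seq and at 0.223, 0.06, −0.02 and 0.109 in Live-seq. Steps were tested on simulated data. Alternatives were DESeq2 1.42.0, the edgeR 4 fit, no TMM, other libraries and filters, cells sampled down to 50000 counts, the batch term, each batch left out and the addition of nuclear copies (chosen after seeing the data). Tables and plots used Python 3.11.15, pandas 2.3.3, scipy 1.17.1 and matplotlib 3.10.9.

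The mitochondrial genes, the marker genes and the list of nuclear genes were chosen with earlier results of these data known. All mRNAs and rRNAs were described; of the tRNAs, the 3 with the most counts in each technique and any that passed a test; of the nuclear list, those called; and nuclear copies with at least 1 CPM in any sum. The authors' own comparisons were not used. Sequences and positions are from GENCODE vM21 transcripts.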

Additional observations from a re-analysis of the deposited data

Results flagged for a closer look

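Of 24 groups of 4 or 5 sums examined for a sum far from the others, 2 held one, where chance gives about 1 in 20 groups. mt-Rnr1 in Live-seq RAW_LPS was highest in batch 8_8, at 2408 CPM against 520.1 to 681 CPM in the other 4 batches. The median mRNA share of Live-seq RAW_Mock was lowest in batch 6, at 0.267% against 1.56 to 1.62% in the other 3 batches.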

How the results depend on the processing

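In mt-Co2 and mt-Atp6 99.5% of windows have a copy in an annotated nuclear transcript, and mt-Nd3 has 6 windows without one. The tRNAs had 4 to 4652 counts each over all cells. The sampling experiment has 1 batch, so its ratios have no replicate error. Except where a value or the construction of an alternative shows it, the cause of a change was not tested.

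The number of mitochondrial genes called between biopsies and whole cells was 1 without the expression filter. Between IBA and RAW_Mock it was 1 in whole cells by the edgeR 4 fit and with cells sampled down to 50000 counts, and 1 in Live-seq with cells sampled down. Between ASPC_Pre and IBA whole cells it was 0 by DESeq2, 2 by the edgeR 4 fit and 0 with copies added. With each batch left out it ran from 0 to 1 for IBA whole cells and stayed at 0 for ASPC_Pre whole cells. For mt-Nd3 DESeq2 gave 10.02 (adjusted p = 0.136).

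Of all genes, the biopsy comparison called 301 by DESeq2, 0 by the edgeR 4 fit, 340 without the filter, 0 with cells sampled down, 0 with batch as a block and 0 in batch 8_8 alone, and 0 to 91 with each batch left out. Lipopolysaccharide called 714, 435, 276 and 384 genes in whole cells by DESeq2, the edgeR 4 fit, without the filter and sampled down, 35 without the block and 0 to 31 with each batch left out. In Live-seq it called 435, 5 and 18 by DESeq2, the edgeR 4 fit and sampled down. IBA against RAW_Mock in Live-seq called 1341, 966, 589 and 732 by DESeq2, the edgeR 4 fit, sampled down and without the block, and 14 to 370 with each batch left out. ASPC_Pre against IBA whole cells called 2328 by the edgeR 4 fit, 837 without the block and 56 to 1509 with each batch left out. In Live-seq it called 3 without TMM, 188 by DESeq2, 9 by the edgeR 4 fit, 2 with all genes kept in the library, 13 without the filter, 35 sampled down and 11 without the block, and 0 to 3 with each batch left out.

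Directions turned for log2 fold changes near 0. Between biopsies and whole cells, the block and batch 8_8 alone gave 0.30 and 0.36 for mt-Rnr2, −0.44 and −0.57 for mt-Nd1, −0.48 and −0.59 for mt-Nd4, and −0.24 and −0.24 for mt-Cytb. mt-Co1 was −0.13 without TMM, −0.0090 with a library without mitochondrial genes and −0.059 without the filter. With each batch left out the ranges were −0.26 to 0.16 for mt-Co1, −0.10 to 0.89 for mt-Cytb, −0.53 to 0.46 for mt-Nd1, −0.28 to 0.56 for mt-Nd4, −0.55 to 0.037 for mt-Nd5 and −0.52 to 0.28 for mt-Rnr2. For lipopolysaccharide in Live-seq they were −0.37 to 0.19 for mt-Co1, −0.84 to 0.14 for mt-Nd5, −0.13 to 0.48 for mt-Rnr1 and −0.40 to 0.072 for mt-Rnr2, and without the block mt-Nd1 and mt-Co1 were 0.16 and 0.049. In whole cells they were −0.10 to 0.039 for mt-Co1, −0.29 to 0.022 for mt-Cytb, −0.063 to 0.055 for mt-Nd1, −0.19 to 0.12 for mt-Nd4 and −0.12 to 0.046 for mt-Rnr2. With copies added mt-Nd3 was −1.57 in whole cells and −1.96 in Live-seq. Leaving out TMM moved the median of all genes from −0.23 to −0.38 for the biopsies, from 0.08 to −0.21 for ASPC_Pre whole cells (955 of 1456 calls higher against 686 of 1596), from −0.11 to −0.42 for ASPC_Pre Live-seq and from −0.01 to −0.12 for lipopolysaccharide whole cells (125 of 169 calls higher, against 86 higher and 57 lower).

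The scRNA-seq mRNA share was 1.97% of kept counts. After sampling, the median over cells, the kept counts and cells sampled down gave ratios to control of 1.25, 1.06 and 1.12 at 1 h and 1.29, 1.10 and 1.19 at 4 h for the 7 mRNAs. For mt-Rnr1 they gave 1.20, 1.16 and 1.12 at 1 h and 1.48, 1.39 and 1.43 at 4 h, and for mt-Rnr2 1.88, 1.12 and 1.18 at 1 h and 1.86, 1.11 and 1.20 at 4 h.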

Other observations

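Across cells of the sampling experiment the mRNA share and the mt-Rnr2 share moved together, with rank correlations of 0.83 in control cells, 0.88 at 1 h and 0.85 at 4 h, given as a description since both shares come from the same library. Within 0.5 points of an mt-Rnr2 share of 4% lay 4 control cells, 0 cells at 1 h and 2 cells at 4 h.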
